A study of Homo sapiens with 12 samples.

Results

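The genes for the proteins of the mitochondrial ribosome that carry MRPL or MRPS symbols were followed in CAMA-1 cells treated with abemaciclib, fulvestrant or both. They were taken from the gene count table by symbol (MRPL or MRPS, a number and, for some, a closing letter A to C), with pseudogenes left out. The rule found 78 genes among 60612 named rows, and 73 of them passed the filter on low counts that left 11803 genes for testing.

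CAMA-1 is an established oestrogen receptor-positive luminal breast cancer cell line, here with wild-type genotype. Cells received DMSO (the solvent control), abemaciclib at 100 nM (an inhibitor of the kinases CDK4 and CDK6), fulvestrant at 5 nM (an oestrogen receptor antagonist that degrades the receptor) or the combination of both agents, whose doses the labels do not restate, and RNA was profiled after 5 days. Each of the 4 groups had 3 libraries from replicate cultures of this single line, all grown in the same serum-containing medium, 12 libraries in all. Libraries were 3′ RNA-seq, in which each transcript gives about one tag near its 3′ end, so the counts were not divided by transcript length.

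Mitochondria keep their own ribosome, which makes a small set of hydrophobic subunits of the respiratory chain encoded by mitochondrial DNA. Its rRNAs come from the mitochondrial genome, whereas its proteins are nuclear gene products made in the cytosol and imported. Many of these proteins descend from bacterial ribosomal proteins and others were added in mitochondria. The particle consists of a large subunit, which forms peptide bonds, and a small subunit, which binds the mRNA. Of the 78 genes, 51 belonged to the large subunit and 26 to the small subunit. The remaining gene, MRPS36, keeps its ribosomal symbol but encodes a subunit of the alpha-ketoglutarate dehydrogenase complex. MRPS18A and MRPS30 carry small-subunit symbols but encode large-subunit proteins, and were counted there.

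The promoters of these genes were searched for 6 short sequence motifs. Promoter sequences from RefSeq (GRCh38.p14, 250 bases before to 50 bases after the transcription start, 300 in all) were matched for 69 of the 78 genes. Those of MRPL10, MRPL13, MRPL15, MRPL2, MRPL21, MRPL23, MRPL35, MRPS28 and MRPS36 were not matched. The 120 bases before the start are shown for MRPL17 (minus strand, chr11:6683341-6683460), the gene with the largest fall under the combination, for MRPL52 (plus strand, chr14:22829767-22829886) and MRPL27 (minus strand, chr17:50373185-50373304), which were lower under each treatment, for MRPS18B (plus strand, chr6:30617720-30617839), which was higher under the combination, and for MRPL11 (minus strand, chr11:66438849-66438968), which had the largest fall under each single agent. Sequences run 5′ to 3′ towards the start, and capitals mark a match to one of the 6 motifs searched on either strand.
MRPL17: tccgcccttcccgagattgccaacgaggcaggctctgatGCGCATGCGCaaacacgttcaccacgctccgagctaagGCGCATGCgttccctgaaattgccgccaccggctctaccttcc
MRPL52: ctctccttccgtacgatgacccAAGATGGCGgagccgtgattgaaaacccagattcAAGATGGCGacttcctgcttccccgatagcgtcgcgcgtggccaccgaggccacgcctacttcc
MRPL27: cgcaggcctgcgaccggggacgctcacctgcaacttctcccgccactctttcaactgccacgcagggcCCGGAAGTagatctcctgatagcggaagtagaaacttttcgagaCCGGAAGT
MRPS18B: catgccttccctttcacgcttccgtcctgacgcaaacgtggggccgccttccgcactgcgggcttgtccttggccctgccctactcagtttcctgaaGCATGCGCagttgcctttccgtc
MRPL11: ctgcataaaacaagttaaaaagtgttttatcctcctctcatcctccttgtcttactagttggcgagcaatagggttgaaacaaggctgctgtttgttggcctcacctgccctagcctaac
The capitals in MRPL17 and MRPS18B are the NRF1 motif GCGCATGC (on the opposite strand in MRPS18B), those in MRPL52 the YY1 motif AAGATGGCG, and those in MRPL27 the ETS motif CCGGAAGT. MRPL17 held 3 NRF1 matches, the first pair of which overlap because the motif nearly reads the same on both strands. MRPL52 and MRPL27 are examples with matches from the 26 genes lower under each treatment. MRPL18 and MRPS18C, also among the 26, held no match in the same 120 bases. The MRPL11 bases shown held none of the 6 motifs. The rest of its searched window held AGGTCA, a half-site of the oestrogen response element and not the full element, so MRPL11 counts among the promoters with that motif.

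Over all matched genes, the YY1 motif was found in 13 of 69 promoters (18.8%), against 1.85% of 27305 promoters of the same length and 4.46% of the 8986 matched promoters of tested genes. The ETS motif was found in 11 (15.9%, against 4.44% and 9.76%), and the NRF1 motif in 6 (8.70%, against 3.27% and 5.98%). The E-box CACGTG was found in 6 (8.70%, against 7.43% and 10.39%), the E2F motif GGCGGGAA in 3 (4.30%, against 3.18% and 5.42%) and the oestrogen response element half-site AGGTCA in 11 (15.9%, against 13.9% and 9.65%). None of these motifs contains another. Among 39 genes with a promoter that were lower under fulvestrant, 3 held the YY1 motif and 4 the NRF1 motif, and among the 26 other tested genes with a promoter, 7 and 2 did. The ETS, E-box, E2F and AGGTCA motifs were held by 6, 4, 2 and 6 of the 39 and by 3, 2, 1 and 4 of the 26. These matches describe letters in the window and were not tested further.

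The libraries held 3299119 to 5164667 counts, of which the 78 genes took 0.55% to 0.75%. In counts per 1000000 (CPM), the luminal markers ESR1 and KRT18 lay at 76.3 to 107 and 385 to 708 over all libraries. The immune, endothelial and basal markers PTPRC, PECAM1, KRT5 and KRT14 and the fibroblast genes COL1A2 and PDGFRB stayed below 1 CPM. COL1A1, also a fibroblast gene, lay between 14.2 and 25.9 CPM and was higher under abemaciclib (0.45 ± 0.17 on the log2 scale) and fulvestrant (0.48 ± 0.17), and its part in the results was not tested. MKI67, a proliferation gene, fell from 466 to 569 CPM in DMSO to 51.4 to 59.6 under abemaciclib, 41.2 to 45.6 under fulvestrant and 1.75 to 2.48 under the combination. GREB1, an oestrogen receptor target, lay at 77.5 to 86.1 CPM in DMSO, 122 to 130 under abemaciclib, 3.95 to 5.47 under fulvestrant and 6.98 to 8.89 under the combination. Transcripts of the mitochondrial genome took 12.0% to 12.6% of counts in DMSO and 15.6% to 20.6% in the treated groups. With these transcripts left out, 30, 42 and 45 members were lower under abemaciclib, fulvestrant and the combination, against 30, 42 and 44 with them. The share of all genes was not counted without them. Replicate 3 of fulvestrant differed most from its partners, and for some of the results that rest on it, values without it are given.

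The summed level of the mitochondrial ribosomal protein genes was lower under every treatment. In CPM scaled by TMM factors, the 73 tested genes together gave 7189 ± 104 (SD, n = 3) in DMSO, 6285 ± 96.0 under abemaciclib, 5757 ± 218 under fulvestrant and 5738 ± 101 under the combination. These sums were 87.4%, 80.1% and 79.8% of that in DMSO. On the log2 scale and averaged over the 73 tested genes, the DMSO libraries lay between -0.05 and 0.03 around their own mean, the abemaciclib libraries between -0.23 and -0.19, the fulvestrant libraries at -0.32, -0.32 and -0.42, and the combination libraries between -0.40 and -0.37. No treated library overlapped DMSO, the abemaciclib libraries lay above all fulvestrant and combination libraries, and the fulvestrant and combination libraries overlapped. In bulk RNA, fewer cells of a kind and less RNA per cell cannot be told apart, and p-values measure only the spread between these cultures.

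**Figure D1:**
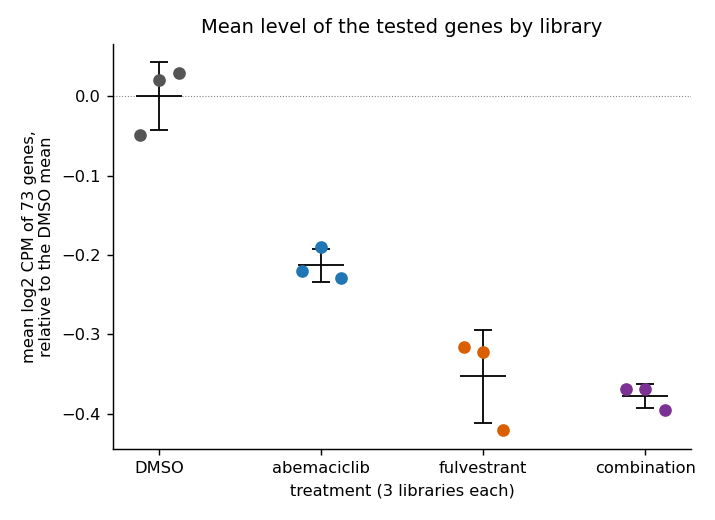
Mean log2 CPM of the 73 tested genes in each library (vertical axis, relative to the DMSO mean) by treatment (horizontal axis). Points are libraries and bars are means and SDs of 3. All 9 treated libraries lie below all 3 DMSO libraries, and the lowest is fulvestrant replicate 3.

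The genes differed widely in level. The highest mean CPM over the 12 libraries was that of MRPS21 (371), followed by MRPL41 (323), MRPL21 (303), MRPS18B (235) and MRPL24 (227). The lowest tested genes were MRPL2 (7.59), MRPS28 (7.72), MRPL39 (7.96), MRPL50 (13.0) and MRPS17 (17.1). Because one tag is counted per transcript, these levels rank the genes without a length correction, but the share of transcripts that end where tags are counted can differ between genes.

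Abemaciclib lowered 30 of the 73 genes and raised 2 (edgeR quasi-likelihood test over all libraries, Benjamini-Hochberg adjusted p below 0.05). Over all 11803 genes, 20.7% were called lower and 20.5% higher. The median log2 fold change of the members was -0.22 (range -0.95 to 0.47), against 0.00 over all genes. Of these 30 genes, 22 belonged to the large and 8 to the small subunit, 46.8% of the 47 and 32% of the 25 tested.

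MRPL11, a protein of the stalk base where translation factors dock, fell most. It measured 145, 150 and 166 CPM in DMSO, and 76.8, 79.0 and 84.1 under abemaciclib. Every treated library was below every control, and the log2 fold change was -0.95 ± 0.09 (SE, edgeR adjusted p = 2.65e-09). MRPL48, a mitochondria-specific protein of the central protuberance, went from 23.7, 26.8 and 25.6 CPM to 14.6, 13.0 and 14.1 (-0.87 ± 0.17, edgeR adjusted p = 1.20e-04). Its groups did not overlap either. The small-subunit gene MRPS26 lay at 177, 177 and 167 CPM in DMSO and at 109, 101 and 106 under abemaciclib (-0.72 ± 0.10, edgeR adjusted p = 1.84e-06). MRPL17, a large-subunit protein with a bacterial counterpart, measured 59.4, 65.9 and 69.7 CPM in DMSO and 40.2, 41.9 and 35.6 under abemaciclib (-0.73 ± 0.12, edgeR adjusted p = 2.95e-05). Again no libraries of the compared groups overlapped.

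The other large falls under abemaciclib were those of MRPS18C (-0.78 ± 0.10), MRPS18A (-0.75 ± 0.14), MRPL52 (-0.69 ± 0.11) and MRPL18 (-0.62 ± 0.11). The last 500 bases of the MRPS18A and MRPS18C transcripts lie wholly opposite exons of RSPH9 and ABRAXAS1 (GENCODE release 44), and the strand setting of the counting is not given in the sources used here, so reads of these partners cannot be told apart. The same limit holds for MRPS25 (100% of these bases opposite NR2C2), MRPS16 (77%), MRPS22 (64%) and MRPL9 (53%). MRPS21, a small-subunit protein with a bacterial counterpart and the most abundant of the set, was higher. It rose from 293, 288 and 325 CPM to 418, 417 and 422, with no overlap (0.47 ± 0.08, edgeR adjusted p = 2.30e-05). MRPS6, another small-subunit protein, was higher by 0.34 ± 0.11 (edgeR adjusted p = 0.0175), a call that was lost without DMSO replicate 2 (0.29, adjusted p = 0.0955) or abemaciclib replicate 1 (0.29, adjusted p = 0.0884).

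Fulvestrant lowered 42 of the 73 genes and raised 3, against 25.7% and 25.3% of all genes. The median log2 fold change was -0.32 (range -1.20 to 0.44), against 0.01 over all genes. Without fulvestrant replicate 3, 42 were lower and 4 higher. The large subunit gave 27 of the 42 falls and the small subunit 15, which were 57.4% and 60% of their tested genes.

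Falls of at least 2-fold were seen for 3 genes under fulvestrant and for none of the 73 under abemaciclib. The share of all genes that fell as far was not counted, so these numbers do not set the members apart. MRPL11 lay at 66.5, 68.5 and 66.3 CPM under fulvestrant, against 145 to 166 in DMSO (-1.20 ± 0.09, edgeR adjusted p = 1.91e-11). MRPL17 lay at 27.9, 34.4 and 24.4 CPM (-1.18 ± 0.13, edgeR adjusted p = 1.72e-08). MRPL18, whose bacterial counterpart binds 5S rRNA, went from 59.7, 63.5 and 60.8 CPM to 32.6, 31.0 and 27.6 (-1.02 ± 0.12, edgeR adjusted p = 3.63e-08). In all of these the fulvestrant libraries lay below DMSO without overlap.

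MRPL12, the stalk protein that also binds the mitochondrial RNA polymerase, measured 44.5, 41.2 and 48.6 CPM in DMSO and 22.5, 23.4 and 22.8 under fulvestrant. The groups were well apart, with a log2 fold change of -0.97 ± 0.13 (edgeR adjusted p = 4.61e-07). The next falls were those of MRPS26 (-0.89 ± 0.10), MRPL52 (-0.85 ± 0.11), MRPL48 (-0.83 ± 0.17) and MRPS18C (-0.78 ± 0.10). MRPL3, a protein of the peptidyl transferase region, also fell (-0.76 ± 0.10, edgeR adjusted p = 6.07e-07), whereas under abemaciclib its log2 fold change was -0.23 ± 0.10 (edgeR adjusted p = 0.0650).

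The genes higher under fulvestrant were MRPS36, MRPS14 and MRPS21. MRPS36, which is not a ribosomal subunit, measured 45.4, 61.2 and 59.3 CPM in DMSO and 73.4, 82.9 and 70.2 under fulvestrant (0.43 ± 0.11, edgeR adjusted p = 0.00195). MRPS21 lay at 379.5, 397 and 340.5 CPM (0.30 ± 0.08, edgeR adjusted p = 0.00231). In both genes the fulvestrant libraries lay above DMSO without overlap. MRPS14 (0.39 ± 0.11, edgeR adjusted p = 0.00566) lost its call without fulvestrant replicate 1 (0.29, adjusted p = 0.0576).

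The combination lowered 44 of the 73 genes against DMSO and raised 3, against 27.5% and 27.7% of all genes. The median log2 fold change was -0.40 (range -1.54 to 0.37), against 0.01 over all genes. The large subunit gave 30 of these falls and the small subunit 14, which were 63.8% and 56% of their tested genes. Falls of at least 2-fold were seen for 3 genes, and the share of all genes that fell as far was not counted. These comparisons with DMSO share the same DMSO libraries, so their values stand side by side and are not independent of each other.

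MRPL17 had the largest fall, at 21.2, 25.8 and 20.4 CPM under the combination against 59.4 to 69.7 in DMSO (-1.54 ± 0.13, edgeR adjusted p = 1.10e-10). MRPL11 lay at 69.5, 56.4 and 65.6 CPM (-1.27 ± 0.09, edgeR adjusted p = 3.74e-12). MRPL18 lay at 28.9, 26.3 and 33.6 CPM (-1.05 ± 0.11, edgeR adjusted p = 1.21e-08). All libraries of these 3 genes were below DMSO. MRPS18C (-0.95 ± 0.10), MRPL52 (-0.92 ± 0.11), MRPL3 (-0.91 ± 0.10), MRPS15 (-0.79 ± 0.09), an early rRNA-binding protein of the small subunit, and MRPL14 (-0.78 ± 0.11) followed.

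MRPS21 (0.37 ± 0.08, edgeR adjusted p = 2.77e-04), MRPS36 (0.32 ± 0.11, edgeR adjusted p = 0.0162) and MRPS18B (0.25 ± 0.08, edgeR adjusted p = 0.0109) were higher under the combination. MRPS18B, a small-subunit protein, measured 210, 229 and 224 CPM in DMSO and 251, 263 and 276 under the combination, without overlap. Its call was lost without combination replicate 3 (0.22, adjusted p = 0.0519). The call of MRPS36 was lost without DMSO replicate 1 (0.21, adjusted p = 0.118) or combination replicate 2 (0.24, adjusted p = 0.112).

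**Figure D2:**
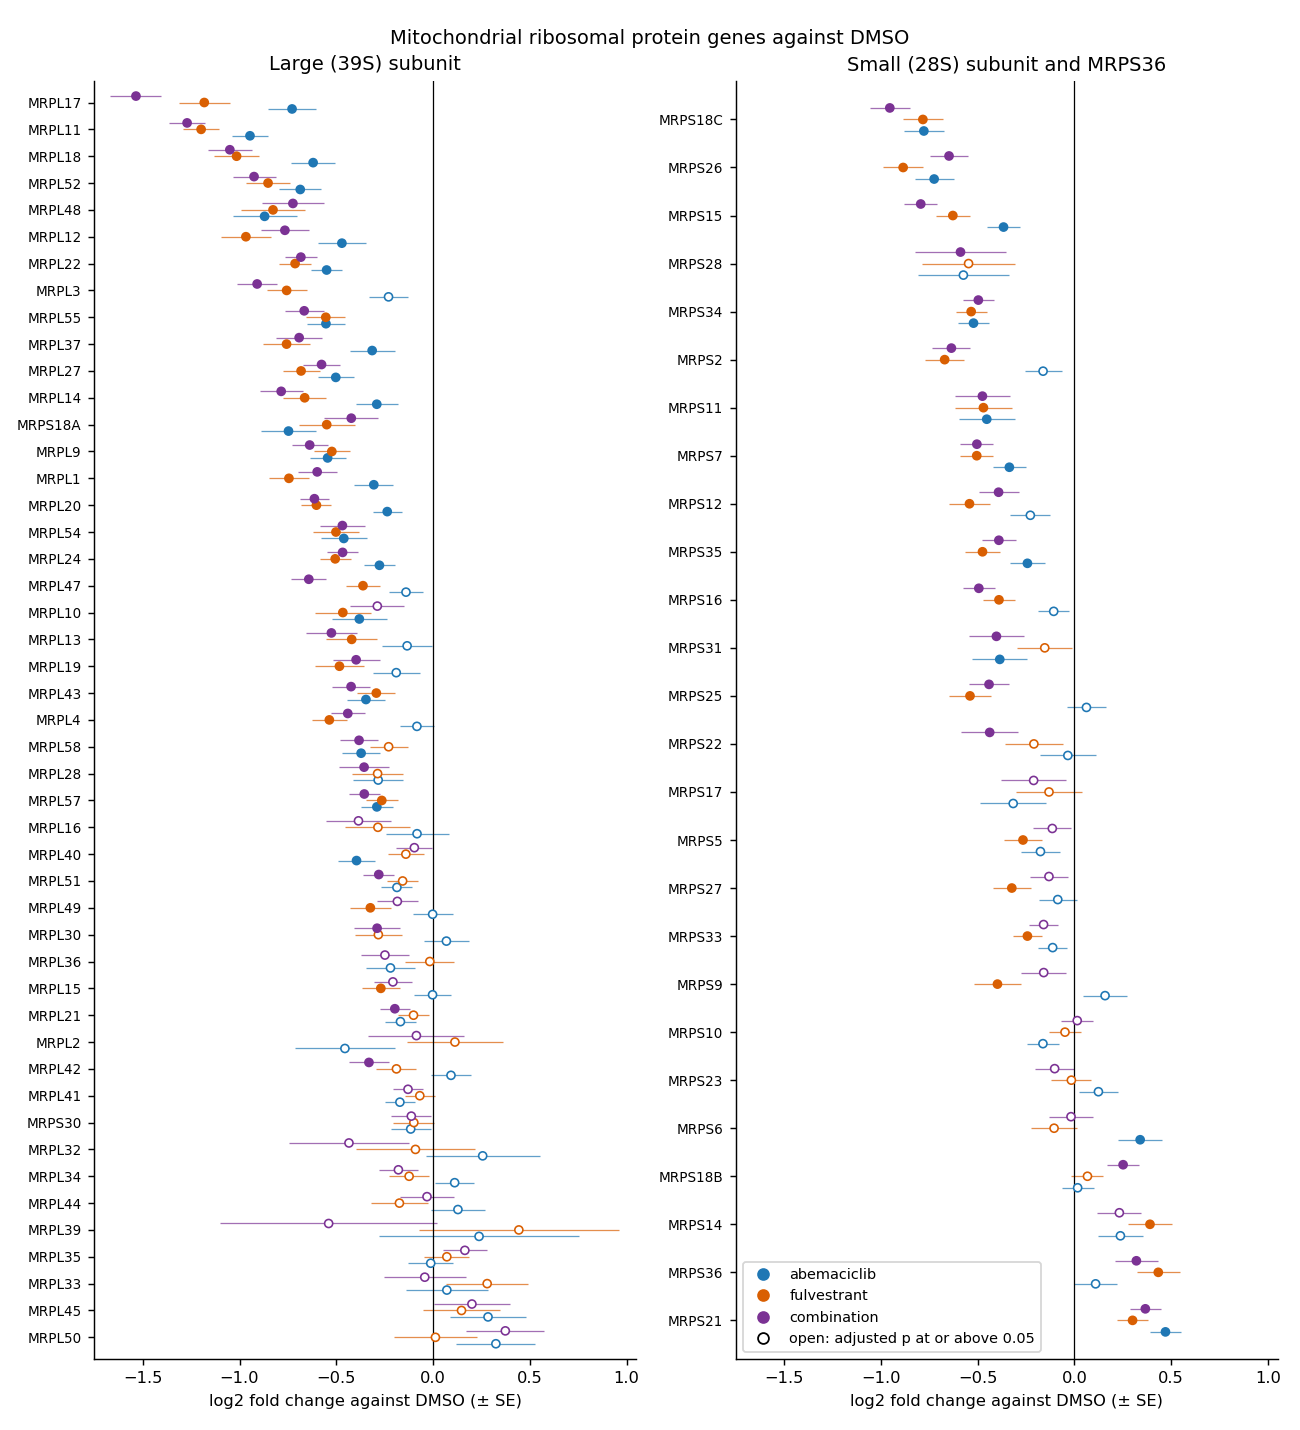
Log2 fold change against DMSO (horizontal axis, with SE) of each of the 73 tested genes (vertical axis, ordered by the mean of the 3 changes) under abemaciclib, fulvestrant and the combination. Filled points passed an adjusted p below 0.05. Most filled points lie below 0, and MRPL17 at -1.54 and MRPL11 at -1.27 under the combination lie farthest from it.

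Adding fulvestrant to abemaciclib lowered a further part of the set. Against abemaciclib alone, the combination lowered 21 of the 73 genes and raised 2, against 17.7% and 15.9% of all genes, with a median log2 fold change of -0.13 (all genes, 0.01). MRPL17 fell again, from 40.2, 41.9 and 35.6 CPM to 21.2, 25.8 and 20.4 (-0.81 ± 0.14, edgeR adjusted p = 3.79e-05). MRPL3 went from 101, 103 and 97.8 CPM to 59.9, 66.0 and 62.3 (-0.68 ± 0.10, edgeR adjusted p = 7.66e-06). In both genes the combination lay below abemaciclib in every library. The small-subunit genes MRPS25 (-0.50 ± 0.10, with the limit on strand given above), MRPS2 (-0.47 ± 0.10) and MRPS15 (-0.43 ± 0.09) and the large-subunit genes MRPL47 (-0.50 ± 0.09), MRPL14 (-0.49 ± 0.11) and MRPL18 (-0.43 ± 0.12) also fell.

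MRPL40 (0.30 ± 0.09, edgeR adjusted p = 0.0149) and MRPS18B (0.23 ± 0.08, edgeR adjusted p = 0.0276) were higher in the combination than under abemaciclib. MRPL40 measured 83.8, 79.7 and 95.5 CPM under abemaciclib and 108, 95.1 and 115 under the combination, so that the groups overlapped by one library. Its call was lost without abemaciclib replicate 1 or 2 or combination replicate 3 (adjusted p = 0.0626, 0.0956 and 0.0960). That of MRPS18B was lost without abemaciclib replicate 1 or 3 or combination replicate 2 or 3 (adjusted p = 0.0612, 0.160, 0.0691 and 0.116).

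Adding abemaciclib to fulvestrant changed no member by the same test. In edgeR, 0 were higher and 0 lower in the combination than under fulvestrant, against 0.297% and 1.63% of all genes. At an unadjusted p below 0.05 there were 4 members, and DESeq2 called 0. The median log2 fold change was -0.01 (range -0.98 to 0.36), and the median SE of a single gene was 0.11. The widest value was that of MRPL39 (-0.98 ± 0.55, edgeR adjusted p = 0.549), one of the lowest genes, at 9.39, 16.9 and 5.01 CPM under fulvestrant and 7.46, 6.20 and 2.14 under the combination. Leaving out fulvestrant replicate 3, edgeR called 1 member higher and 2 lower, and 17 members had an unadjusted p below 0.05. The 3 called were MRPL33, MRPL47 and MRPS26, chosen here after their values were seen.

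The change with abemaciclib was then compared without and with fulvestrant, as the difference between combination against fulvestrant and abemaciclib against DMSO on the log2 scale. A positive value means a smaller fall, or a larger rise, when fulvestrant was present. It was positive past the threshold for 18 members and negative for 1, against 9.49% and 11.6% of all genes, with a median of 0.20 (all genes, -0.01). Without combination replicate 3, 11 members were positive. Across the 73 genes, whose values come from 2 separate pairs of groups counted in the same way, the changes without and with fulvestrant had a Pearson r of -0.036 and a Spearman rho of 0.055.

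MRPL48 had the largest difference (0.97 ± 0.24, edgeR adjusted p = 0.00471). It fell by 0.87 on the log2 scale with abemaciclib alone, whereas in fulvestrant it lay at 12.8, 11.8 and 18 CPM and in the combination at 16.6, 13.0 and 16.7 (0.10 ± 0.18, edgeR adjusted p = 0.880). MRPS26 (0.96 ± 0.15, edgeR adjusted p = 2.35e-05) lay at 90.2, 75.9 and 115 CPM under fulvestrant and 113, 113 and 107 under the combination. In both genes the fulvestrant and combination libraries overlapped, with fulvestrant replicate 3 the highest of its group. Over the alternative settings, leaving out that library among them, the differences were 0.86 to 1.19 for MRPL48 and 0.83 to 1.14 for MRPS26. Both passed in each of these settings (highest adjusted p 0.0188 and 2.37e-04). MRPL11 (0.87 ± 0.13, edgeR adjusted p = 2.49e-05) showed little further change on top of fulvestrant (-0.07 ± 0.10, edgeR adjusted p = 0.832), and its fulvestrant libraries were already at 66.3 to 68.5 CPM. The other members among the 10 largest were MRPS18A (0.87), MRPL12 (0.67), MRPL52, MRPL27 and MRPS18C (0.61 each), MRPL18 (0.58) and MRPL22 (0.58). MRPS21 was the member with a negative difference (-0.40 ± 0.11, edgeR adjusted p = 0.00964), which did not pass when libraries were scaled by total counts only (-0.29, adjusted p = 0.0694). MRPL17, the most lowered gene of the combination, had a difference of 0.38 ± 0.19 (edgeR adjusted p = 0.169).

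**Figure D3:**
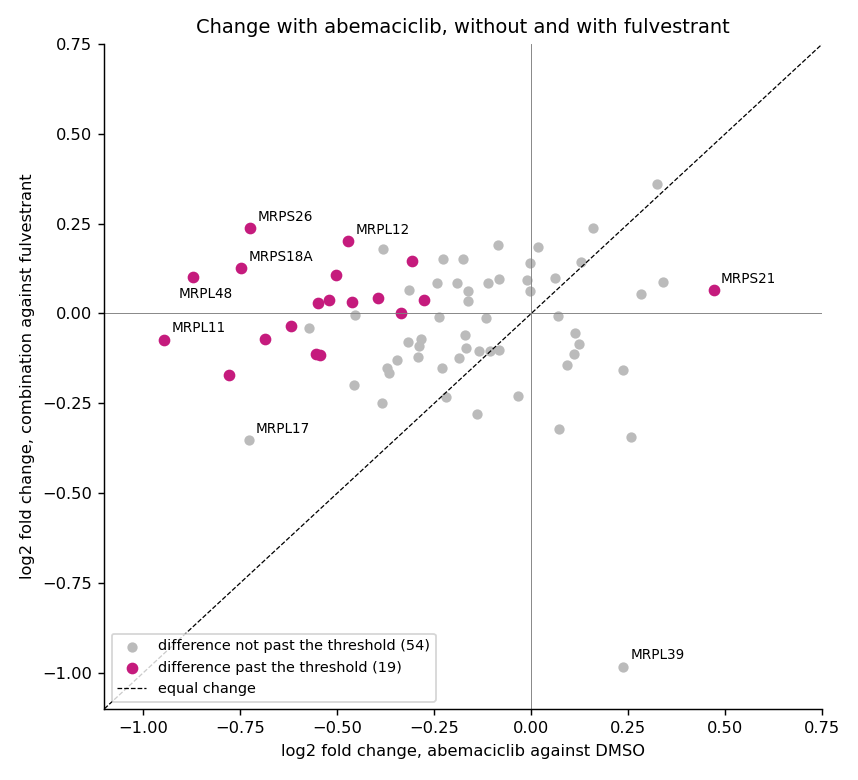
Log2 fold change with abemaciclib in the absence of fulvestrant (horizontal axis, abemaciclib against DMSO) and in its presence (vertical axis, combination against fulvestrant) for the 73 tested genes. The dashed line marks equal change, and coloured points are the 19 genes whose difference passed the threshold: 18 lie above the line and MRPS21 below it.

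The levels of the genes on which these comparisons turned are shown by library in the plot of CPM. MRPL11, MRPL17, MRPL18 and MRPL12 had all 9 treated libraries below all DMSO libraries, and MRPS21 had all 9 above.

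**Figure D4:**
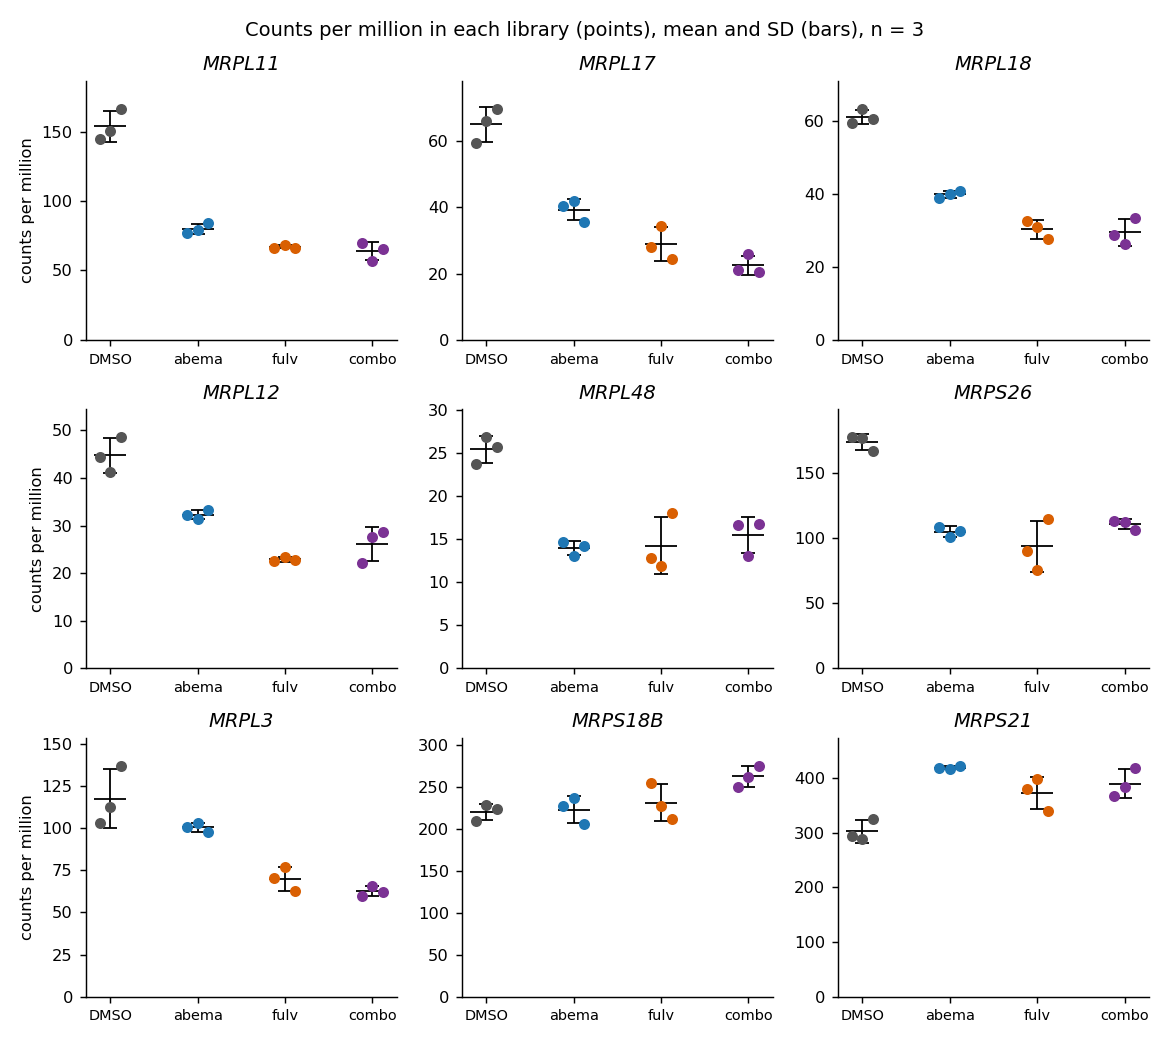
CPM (vertical axis, from 0) in each library for 9 genes, by treatment (abema, abemaciclib; fulv, fulvestrant; combo, combination). Points are libraries and bars are means and SDs of 3. MRPL17 falls from 64.99 CPM on average in DMSO to 22.5 in the combination, whereas MRPS21 lies at 302 in DMSO and at 372 to 419 in the treated groups.

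Members with roles outside the shared core are given one by one, and differences between them were not tested. MRPL58, a peptidyl-tRNA hydrolase built into the large subunit, fell under abemaciclib (-0.37 ± 0.10, edgeR adjusted p = 0.00333) and the combination (-0.38 ± 0.10, edgeR adjusted p = 0.00160), and under fulvestrant its value was -0.23 ± 0.10 (edgeR adjusted p = 0.0523). MRPL57 fell in each comparison with DMSO, by 0.29, 0.26 and 0.36 on the log2 scale under abemaciclib, fulvestrant and the combination. MRPS27, a pentatricopeptide repeat protein of the small subunit, was lower under fulvestrant (-0.32 ± 0.10, edgeR adjusted p = 0.00796), a call lost without fulvestrant replicate 2 (adjusted p = 0.0688) or DMSO replicate 3 (adjusted p = 0.0901). MRPS30 and MRPL41, of the large subunit, did not pass in any comparison. MRPL41 measured 336 to 361 CPM in DMSO, 292 to 329 under abemaciclib, 321 to 342 under fulvestrant and 289 to 341 under the combination.

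The 3 MRPS18 paralogues, which descend from one bacterial protein, moved apart. Against DMSO, MRPS18C of the small subunit had log2 fold changes of -0.78, -0.78 and -0.95 under abemaciclib, fulvestrant and the combination, and MRPS18A of the large subunit of -0.75, -0.55 and -0.42. All of these passed the threshold, that of MRPS18A under the combination only with combination replicates 2 and 3 both present (without them, adjusted p = 0.0615 and 0.0738). MRPS18B had values of 0.02, 0.07 and 0.25, of which the last passed. The differences between paralogues were not tested, and the limit on strand given above applies to MRPS18A and MRPS18C.

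By origin, with MRPS18A and MRPS18B listed as mitochondria-specific, 17 of 44 tested genes with a bacterial counterpart and 13 of 28 mitochondria-specific genes were lower under abemaciclib, 28 and 14 under fulvestrant, and 28 and 16 under the combination. These were 38.6% and 46.4%, 63.6% and 50%, and 63.6% and 57.1% of the 2 classes, against 20.7%, 25.7% and 27.5% of all genes. Against abemaciclib, the combination was lower for 17 of the 44 (38.6%) and 4 of the 28 (14.3%), against 17.7% of all genes. The median log2 fold changes in that comparison were -0.20 and -0.06. Differences between these classes were not tested.

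Other genes of mitochondrial translation were read beside them. The mitochondrial ribosomal proteins with other symbols were 5, of which edgeR called 1, 3 and 2 lower under abemaciclib, fulvestrant and the combination. These were 20%, 60% and 40% of this short list, against 20.7%, 25.7% and 27.5% of all genes. AURKAIP1 fell from 202 to 223 CPM in DMSO to 168 to 173, 125 to 148 and 135 to 149 (-0.33 ± 0.08, -0.62 ± 0.08 and -0.61 ± 0.08), without overlap with DMSO. GADD45GIP1 fell under fulvestrant (-0.27 ± 0.08) and the combination (-0.33 ± 0.08). DAP3, a GTP-binding protein of the small subunit, had values of -0.01, 0.12 and -0.04, none of which passed.

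Assembly factors of the mitochondrial ribosome numbered 24 tested of 26, of which 4, 5 and 8 were lower and 1, 3 and 2 higher under abemaciclib, fulvestrant and the combination. The lower calls were 16.7%, 20.8% and 33.3% of the list, near the 20.7%, 25.7% and 27.5% of all genes. RBFA, which binds the maturing small subunit, was lower under fulvestrant (-0.83 ± 0.18, edgeR adjusted p = 2.59e-04) and the combination (-0.74 ± 0.17, edgeR adjusted p = 5.33e-04). RPUSD4, a pseudouridine synthase, was lower under fulvestrant (-0.78 ± 0.16, edgeR adjusted p = 1.74e-04). It was also lower under the combination (-0.66 to -0.47 over the alternative settings, adjusted p 0.0014 to 0.0213). Under abemaciclib, RBFA and RPUSD4 averaged 20.1 and 19.0 CPM, against 26.8 and 25.1 in DMSO. Over the alternative settings these falls had adjusted p from 0.0235 to 0.192 and from 0.0131 to 0.118. MTERF4, which acts with the methyltransferase NSUN4 on the large subunit, was higher under fulvestrant (0.71 ± 0.16, edgeR adjusted p = 5.78e-04). Translation factors numbered 15 tested of 16, with 4, 5 and 5 lower, also near the background at 26.7%, 33.3% and 33.3%, and 1 higher under fulvestrant and under the combination. MTIF2, the initiation factor, fell in each comparison with DMSO (-0.49 ± 0.10, -0.47 ± 0.10 and -0.58 ± 0.10), whereas MTIF3 was higher under fulvestrant (0.39 ± 0.10) and the combination (0.33 ± 0.09).

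Of 5 genes of mitochondrial transcription, TFAM, which packages and transcribes mitochondrial DNA, was the one that fell. It measured 102, 113 and 117 CPM in DMSO, 73.7 to 76.6 under abemaciclib, 69.7 to 80.0 under fulvestrant and 74.8 to 85.8 under the combination, without overlap with DMSO. Its log2 fold changes were -0.56 ± 0.09, -0.56 ± 0.09 and -0.50 ± 0.09. The rRNAs of the mitochondrial ribosome were read at the same time, as 3′ tags. In DMSO, MT-RNR2 and MT-RNR1 averaged 52950 and 12001 CPM, and how far such tags follow the amount of each rRNA was not tested. MT-RNR2 lay at 48090 to 59071 CPM in DMSO and was higher under fulvestrant (0.35 ± 0.13, edgeR adjusted p = 0.0350), a call lost without any one of DMSO replicates 2 and 3 and fulvestrant replicates 2 and 3. MT-RNR1 did not pass in any comparison.

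Nuclear regulators of mitochondrial genes numbered 8 tested of 9, with 3, 4 and 4 lower against DMSO under abemaciclib, fulvestrant and the combination. These were 37.5%, 50% and 50% of this short list, against 20.7%, 25.7% and 27.5% of all genes. NRF1, the factor whose motif was searched above, measured 17.2, 15.8 and 22.1 CPM in DMSO, 6.62 to 9.00 under abemaciclib, 9.59 to 11.4 under fulvestrant and 6.82 to 14.2 under the combination. All treated libraries were below DMSO, with log2 fold changes of -1.24 ± 0.22, -0.81 ± 0.22 and -0.82 ± 0.21. GABPB1, a subunit of an ETS-family factor, fell under fulvestrant (-0.65 ± 0.14) and the combination (-0.63 ± 0.14). It was lower under abemaciclib too, at 24.1 CPM on average against 31.0 in DMSO. That fall did not pass under every alternative setting (log2 fold change -0.46 to -0.26, adjusted p 0.0148 to 0.196). PPRC1, a coactivator, fell under fulvestrant and the combination (-0.77 ± 0.17 and -0.86 ± 0.16), and YY1 fell under abemaciclib (-0.34 ± 0.07, edgeR adjusted p = 5.34e-04). MYC spread widely in DMSO, at 8.61, 16.7 and 27.5 CPM, and was lower under the combination (-1.93 ± 0.46, edgeR adjusted p = 0.00428). Its call under fulvestrant (-1.40 ± 0.44, edgeR adjusted p = 0.0222) was lost without fulvestrant replicate 2 or 3 (adjusted p = 0.0783 and 0.0906). Whether any of these levels bears on the members was not tested.

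The cytosolic ribosomal protein genes, read side by side, were lower in 45 of 81 under abemaciclib, 75 under fulvestrant and 75 under the combination. Their median log2 fold changes were -0.25, -0.76 and -0.87, against -0.22, -0.32 and -0.40 for the mitochondrial set. When fulvestrant was added to abemaciclib, 74 of the 81 were lower, with a median of -0.62. The difference between the sets was not tested.

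**Figure D5:**
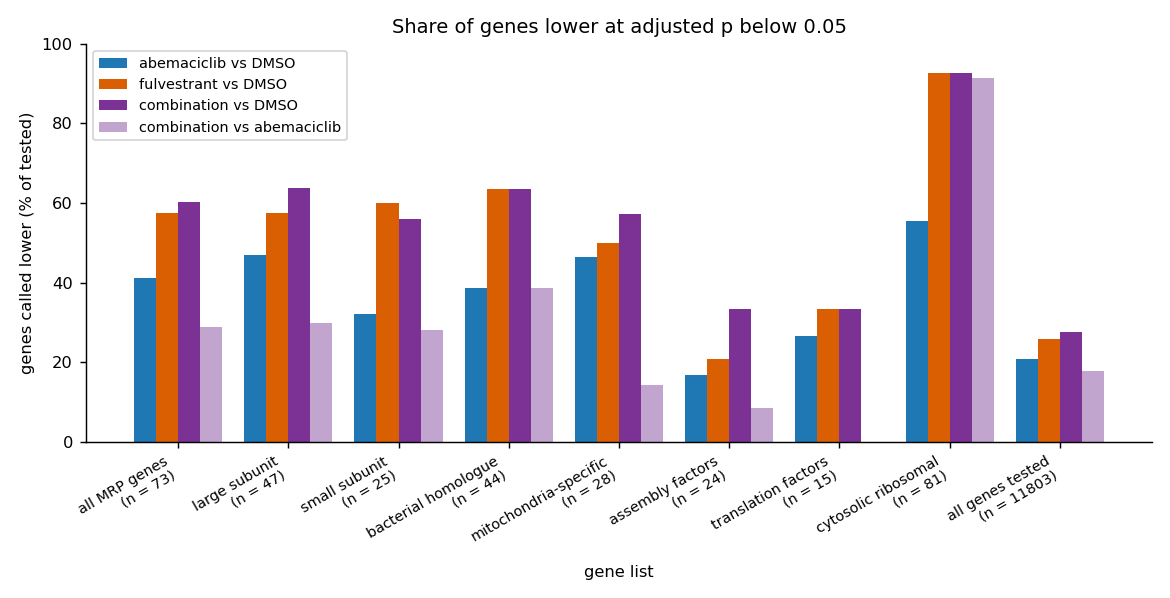
Share of tested genes called lower (vertical axis, %) in each gene list (horizontal axis, with the number tested) for 4 comparisons. The mitochondrial ribosomal protein genes reach 41.1%, 57.5% and 60.3% against DMSO, all genes 20.7%, 25.7% and 27.5%.

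The 5 genes that failed the filter were MRPL23, MRPL38, MRPL46, MRPL53 and MRPS24, with 0 to 7 counts in any library. For 4 of them, exons of another gene on the same strand cover at least 50% of the last 500 transcript bases (496 in the shorter MRPL53; GENCODE release 44): MRPL38 99.8%, MRPL46 95.4%, MRPL53 99.2% (CCDC142) and MRPS24 100% (the URGCP-MRPS24 readthrough gene). MRPL23 had no such overlap. Among the 73 tested members this held for MRPL19, MRPS25, MRPS28 and MRPS5, and among 10542 tested protein-coding genes for 1.30%. The files were counted on an earlier GENCODE release, and the part of these overlaps in the counts was not tested.

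The members lay on 21 chromosomes. Of the 73 tested, 16 (21.9%) had the start of another protein-coding gene on the opposite strand within 1000 bases, against 12.3% of tested protein-coding genes. MRPL27 lies 13 bases from the start of EME1, MRPL52 59 bases from that of SLC7A7 and MRPL18 109 bases from that of TCP1 (GRCh38). MRPL17 occupies chr11:6680385-6683340 on the minus strand, with 3 exons in its main transcript, MRPL11 chr11:66435075-66466738 on the minus strand, with 5, and MRPS21 chr1:150293861-150308979 on the plus strand, with 3.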

How the data were processed

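RNA from CAMA-1 cells (4 treatment groups, 3 biological replicate libraries each) was made into 3′ RNA-seq libraries (QuantSeq FWD). The authors trimmed the reads with BBDuk, aligned them to hg38 with STAR and deposited whole-number counts per gene from featureCounts (version 2.0.1) on a GENCODE annotation. The strand setting and the handling of molecular identifiers are not given in the sources used here. In the table of 60656 rows, 44 rows named no gene and held 0 reads.

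The counts as deposited were tested here with edgeR 4.0.16 in R 4.3.3. Genes were kept by filterByExpr (minimum count 10, minimum total 15), scaled by TMM, and fitted with robust quasi-likelihood over all 12 libraries with 4 group means. This gave 5 pairwise comparisons and the difference of the abemaciclib effect with and without fulvestrant, with Benjamini-Hochberg adjustment over all 11803 genes and a threshold of 0.05. SEs were the absolute log2 fold change divided by the square root of F. CPM used TMM-scaled totals. Library totals of 3299119 to 5164667 set the precision: 3 counts correspond to 0.57 to 0.89 CPM. Scripts were tested on simulated data. A first criterion of recovery over genes of all levels was not met and was replaced, after that result, by one for well-counted genes. In the simulation more true changes were missed at low counts and for the difference of the abemaciclib effect, and the share of false calls was above the threshold. The study's own tool, DESeq2 (1.42.0 here), was an alternative, beside other scalings, filters, thinning, a replicate block and leaving out each library. No pair of replicate libraries agreed within sampling noise (chi-square per degree of freedom 1.87 to 15.3).

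Members and gene lists were chosen with earlier results of these data known. Named are the 8 largest rises and falls past the threshold in each comparison, the 5 highest and 5 lowest genes, members with roles apart (MRPL12, MRPL41, MRPL57, MRPL58, the 3 MRPS18 genes, MRPS27, MRPS30 and MRPS36), members that failed the filter, the 10 largest differences of the abemaciclib effect, and up to 4 genes per other list and comparison. Genes added beside these are MRPL33 and DAP3, MRPL3 under single agents, MT-RNR1, and MRPL17 for the difference of the abemaciclib effect.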

Additional observations from a re-analysis of the deposited data

Results flagged for a closer look

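The change with abemaciclib differed between cultures without and with fulvestrant for 19 members, by the test of that difference itself (edgeR, combination against fulvestrant minus abemaciclib against DMSO, log2 scale). The differences were 0.97 for MRPL48, 0.96 for MRPS26, 0.87 for MRPS18A and 0.87 for MRPL11. They were 0.67 for MRPL12, 0.61 for MRPL52, 0.61 for MRPL27 and 0.61 for MRPS18C. MRPL18 and MRPL22 gave 0.58 each, MRPS34 gave 0.56, MRPL54 gave 0.49 and MRPL1 gave 0.45. MRPL55 and MRPL40 gave 0.44 each, MRPL9 gave 0.43, MRPS7 gave 0.34, MRPL24 gave 0.32 and MRPS21 gave -0.40. Among these, MRPL24, MRPL54, MRPL1, MRPL55 and MRPS7 did not pass with DESeq2. Leaving out single libraries ended 8 of these calls. MRPL18 did not pass without combination replicate 3 (0.47, adjusted p = 0.0615). MRPL9, whose last transcript bases lie partly opposite another gene, did not pass without DMSO 3, abemaciclib 3 or combination 3 (adjusted p = 0.0704, 0.0735 and 0.0755). MRPL40 did not pass without DMSO 1, abemaciclib 2, fulvestrant 1 or combination 3 (adjusted p = 0.0537, 0.0667, 0.0522 and 0.0692). MRPL55 lost its call without DMSO 1, abemaciclib 1 or 3, fulvestrant 2 or combination 1 or 3 (adjusted p from 0.0533 to 0.0927). MRPL1 lost it without DMSO 2 or 3, abemaciclib 1 or 3, fulvestrant 2 or combination 1 or 3 (from 0.0513 to 0.0862), and MRPL24 without DMSO 2 or 3, any abemaciclib library, fulvestrant 1 or combination 2 or 3 (from 0.0572 to 0.190). With 1 library left out, MRPL54 passed only where that library was abemaciclib 2 or fulvestrant 3 (otherwise from 0.0567 to 0.0970), and MRPS7 only where it was fulvestrant 2 or combination 3 (otherwise from 0.0638 to 0.145). MRPS21 did not pass with scaling by total counts only (-0.29, adjusted p = 0.0694).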

How the results depend on the processing

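Of 177 gene results tried under the alternatives, 131 kept their call and direction under each of them, 46 lost the call under at least 1 (12 of these only by leaving out a library), and 0 reversed. The counts of lower members against DMSO stayed within 1.5 times: leaving out one library gave 25 to 36 under abemaciclib, 38 to 43 under fulvestrant and 39 to 46 under the combination. Scaling by total counts only gave 1 higher member under abemaciclib, 4 higher in the combination against abemaciclib, 0 negative differences of the abemaciclib effect, and medians of -0.28 under abemaciclib, -0.38 under fulvestrant and 0.31 for that difference, and the median of all genes then lay at -0.06, -0.05 and 0.10. Without the low-count filter, 1 member was higher in the combination against abemaciclib. Leaving out one library gave 1 to 2 higher under abemaciclib, 0 to 2 higher in the combination against abemaciclib, 0 to 1 higher and 0 to 2 lower against fulvestrant (without fulvestrant replicate 3), and 11 to 21 positive (11 without combination replicate 3) and 1 to 3 negative differences (3 without fulvestrant replicate 3). The mean relative to DMSO under the combination was -0.33 from the summed CPM, against -0.38 over single genes. DESeq2 called 13 positive differences and 1 negative among the members, and 2107 of either sign over all genes. The causes of these shifts were not tested.

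With the replicate block, 30, 42 and 45 members were lower under abemaciclib, fulvestrant and the combination, 22 in the combination against abemaciclib, and 16 differences were positive. The share of all genes called was not counted with the block. Libraries share only a number: of 18 same-number pairs, deviations correlated at -0.215 to 0.119, 2 over 0.1, and 5 of 12 libraries were closest to their own number. Depth limits the lowest members most: MRPL39 had an SE of 0.55 against fulvestrant, where the median SE of a member was 0.11.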
